A study of Mus musculus with 11 samples.

Results

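The clustered histone genes are the core and linker histone genes that sit in tandem in the Hist1, Hist2, Hist3 and Hist4 gene clusters of the mouse genome. They were taken here as the protein-coding rows of the count table whose symbols start with Hist1h, Hist2h, Hist3h or Hist4h, which gave 68 genes of the 46983 counted. Of these, 43 reached the minimum of 10 counts summed over all libraries and are the genes described below. The table gave 11 others at 0 in every library and 14 with fewer than 10 counts. Just inside the minimum stood the H2B genes Hist1h2bm and Hist1h2bp with 11 counts each, and just outside it Hist1h2bk with 9. The measurements are RNA-seq counts from whole aortic valves of wild type mice, collected 48 hours after wire injury of the valve endothelium or after sham surgery. The young mice (3 to 4 months of age) gave 3 libraries after sham surgery and 3 after injury. The aging mice (16 to 18 months) gave 3 after sham surgery and 2 after injury. Each library came from 1 mouse, so p-values measure the spread between mice.

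Histones H2A, H2B, H3 and H4 form the protein core on which DNA is wound into nucleosomes, and H1 is the linker histone that binds where the DNA enters and leaves the core. Most clustered genes are replication-dependent: they are transcribed mainly while DNA is copied, and their mRNA ends in a short stem-loop bound by the protein Slbp instead of a poly(A) tail. Some of them also give polyadenylated mRNA from a site further downstream, as is known for cells that have left the cell cycle. The libraries were made from 200 ng of total RNA with an mRNA kit, per the labels' protocols. Such kits take up poly(A) RNA, so a histone mRNA that ends at its stem-loop is measured poorly or not at all. In whole tissue, fewer cells of a type and less RNA per cell cannot be told apart.

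The stem-loop was searched in the GENCODE M21 transcripts (GRCm38) as GG and 4 further bases, a loop of TTNN and the exact complement of the 6 stem bases, within 100 bases after the stop codon. It was found in 29 of the 41 members with a protein-coding transcript there, and in 14 of 44290 other protein-coding transcripts, or 0.0316%. Only 36 of the 43 members have 16 or more annotated bases after the stop codon, which all the other transcripts searched had. Members were counted by gene and the others by transcript. The sites below belong to the leading genes of each class and to the low-count genes described further on, with the 16 bases of the stem and loop in capitals and up to 5 flanking bases on each side.
Hist1h1c, chr13:23739507-23739532 (+): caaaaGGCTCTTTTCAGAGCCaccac
Hist3h2a, chr11:58955167-58955192 (+): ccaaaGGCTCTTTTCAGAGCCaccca
Hist1h2be, chr13:23585526-23585551 (-): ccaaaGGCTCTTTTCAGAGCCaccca
Hist1h2bj, chr13:22043633-22043658 (+): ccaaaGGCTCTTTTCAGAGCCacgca
Hist2h3c1, chr3:96247322-96247347 (+): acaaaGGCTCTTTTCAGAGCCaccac
Hist1h4h, chr13:23531453-23531478 (+): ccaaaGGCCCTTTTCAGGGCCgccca
Hist1h4i, chr13:22040961-22040986 (-): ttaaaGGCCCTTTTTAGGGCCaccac
The stem separated H4 from the other classes: all 21 sites found in H1, H2A, H2B and H3 members opened with GGCTCT, while 7 of the 8 sites in H4 members opened with GGCCCT and 1 with GGTCCT. The loop was TTTC in 23 of the 29. No site of this form was found in Hist1h2bc or Hist2h2be, which says only that these letters were not in the windows searched.

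The counts were concentrated in very few genes. The 43 members together held 47243 counts, between 0.00894% and 0.0166% of a library's total. Hist1h1c, a linker histone gene at chr13:23738808-23740367 (mm10, as are all gene positions), held 39.1% of them with 18449 counts. With the H2B gene Hist1h2bc, at chr13:23684199-23692488 with 11673 counts, the share came to 63.8%. The H2A gene Hist3h2a (5672 counts) and the H2B gene Hist2h2be (4470) brought it to 85.2%, and Hist1h2be (1627) and the H3 gene Hist2h3c1 (1136) to 91.1%. At the other end, 26 members had between 10 and 100 counts in all. By class, H1 took 39.8% of the counts, H2A 13.6%, H2B 40.4%, H3 3.52% and H4 2.75%. These are shares of counts, not scaled by length and obtained with an mRNA kit. They do not measure histone protein, of which each nucleosome holds the core types in equal number.

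**Figure D1:**
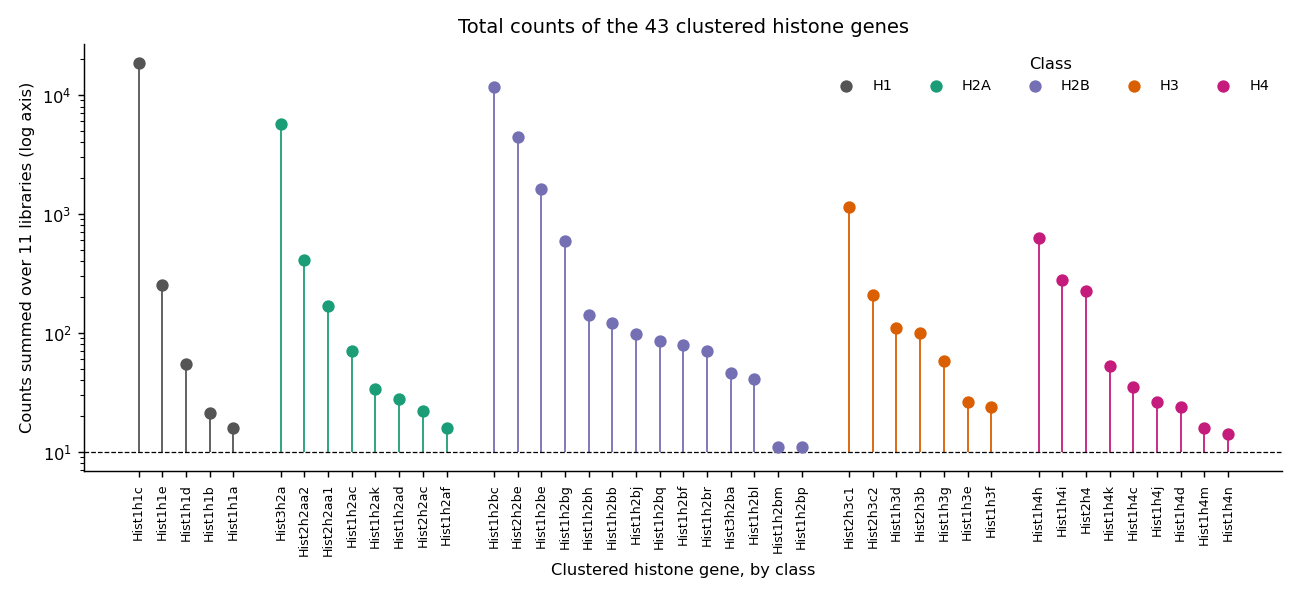
Counts summed over the 11 libraries (log axis) for each of the 43 clustered histone genes, ordered within class, with the minimum of 10 counts as a dashed line. The leading gene of each class runs from Hist1h1c at 18449 in H1 to Hist1h4h at 625 in H4, and most members lie below 100.

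The 6 leading genes all had long annotated 3′ ends, and the other members with such ends had few counts as they were counted here. The 15 members with an annotated 3′ untranslated region of 500 nt or more held 93.0% of the members' counts, with a median of 226 counts per gene, and 43027 of their counts lay in the 6 leading genes. The other 9 had 24 to 252 counts each, fewer than Hist1h4i, Hist2h2aa2, Hist1h2bg and Hist1h4h (279 to 625), whose annotated ends are shorter. For 6 of those 9, among them Hist1h1d and Hist1h2ac, the gene span in the count table is shorter than the GENCODE end. Reads from that end may not have been counted. Of the rest, Hist1h2bq and Hist1h2br share 100% and 99.8% of their 150-base windows with other genes. The 26 members with a shorter annotated 3′ untranslated region held 6.63% of the counts, with a median of 43.5. The threshold of 500 nt was chosen after the counts were seen, and 2 members (Hist1h2bh and Hist1h2bm) had no such transcript. The stem-loop of Hist1h1c lies 840 nt before the annotated end of its transcript, that of Hist3h2a 1643 nt and that of Hist1h2be 1861 nt. Hist1h4h ends 46 nt after its stem-loop. The poly(A) signal AATAAA, searched on the transcript strand in the last 40 nt, was present in 10 of the 41 members and in 52.2% of 43279 other transcripts. Those 10 genes, among them Hist1h1c, Hist3h2a, Hist2h2be and Hist2h3c1, held 63.9% of the members' counts. The other transcripts searched were those with a 3′ untranslated region of 40 nt or more, a limit not set for the members. Members were counted by gene and the others by transcript, so the shares with AATAAA are not like for like.

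Per length, the order was similar but Hist1h2bc came first. In the authors' deposited table of RPKM (reads per kb of transcript and per 1000000 mapped reads), which lists 22 of the members among 13526 genes, Hist1h2bc had a mean of 49.5 RPKM, at the 92.6th percentile of the listed genes. Hist1h1c followed with 36.9 RPKM, Hist3h2a with 8.19, Hist2h2be with 5.28, the H4 gene Hist1h4h with 4.21 and the H2B gene Hist1h2bg with 3.93. The other 16 ranged from 0.427 RPKM for Hist2h4 to 2.38 for Hist2h2aa2. The median listed gene had 6.95 RPKM, so 3 of the 22 members stood above it. By CPM (counts per 1000000 counts of the library) per kb of gene span, Hist1h2bc moved from rank 1 to rank 4 of these genes, since its span of 8290 bp is far longer than the 725 bp that its RPKM implies.

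Clustered H2A and H2B genes often stand head to head, with their starts a short distance apart and their transcripts running away from each other. There were 12 such H2A and H2B pairs with 235 to 305 bp between the starts. The pair Hist1h2ac and Hist1h2bc is separated by 274 bp, and Hist1h2ac had 71 counts and Hist1h2bc 11673. The counted span of Hist1h2ac (476 bp) is shorter than its annotated 3′ untranslated region in GENCODE (2058 nt). Reads from that end may not have been counted, and the part of this in the pair's difference was not tested. The pair Hist2h2ac and Hist2h2be is separated by 238 bp and had 22 and 4470 counts. The pair Hist1h2ae and Hist1h2bg, 286 bp apart, had 2 and 593. Per kb of gene span Hist1h2ac stood at 0.40 CPM and Hist1h2bc at 3.95. The span of Hist1h2bc (8290 bp) is far longer than the 725 bp that its RPKM implies, so per kb of transcript it stands higher than this. In 11 of the 12 pairs the H2B gene had more counts than its H2A partner, the exception being Hist1h2ak with 34 counts beside Hist1h2bn with 5. Several H2A partners share most 150-base windows of their transcript with other genes, such as Hist1h2ao (91.5%), Hist1h2ap (91.0%) and Hist1h2ai (86.1%). So do the H2B genes Hist1h2bq (100%) and Hist1h2br (99.8%), while Hist1h2ac shares 5.6% and Hist2h2ac 0%. Reads of such genes could not be separated with certainty, and the part of this in the pair counts was not tested.

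Promoters are shown for the most counted member and for the stretch shared by Hist1h2ac and Hist1h2bc, the pair with the most counts. They come from RefSeq (GRCm38.p6), run from 250 bases before to 50 after the start, and matched 39 of the 43 members. Capitals mark 4 motifs, each searched on both strands. CCAAT is the letters of the CCAAT box. TATAAA is those of the TATA box. ATTTGCAT is the octamer known from H2B promoters. AAACACA is known from H1 promoters.
Hist1h1c promoter, chr13:23738557-23738856 (+): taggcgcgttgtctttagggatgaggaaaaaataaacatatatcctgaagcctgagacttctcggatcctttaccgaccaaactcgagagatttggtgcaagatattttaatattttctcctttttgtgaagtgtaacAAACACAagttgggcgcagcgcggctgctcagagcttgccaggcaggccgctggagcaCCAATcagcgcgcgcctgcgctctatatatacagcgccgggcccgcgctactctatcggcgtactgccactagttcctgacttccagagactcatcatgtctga
Hist1h2ac promoter, which reaches into the start of Hist1h2bc, chr13:23683910-23684209 (-): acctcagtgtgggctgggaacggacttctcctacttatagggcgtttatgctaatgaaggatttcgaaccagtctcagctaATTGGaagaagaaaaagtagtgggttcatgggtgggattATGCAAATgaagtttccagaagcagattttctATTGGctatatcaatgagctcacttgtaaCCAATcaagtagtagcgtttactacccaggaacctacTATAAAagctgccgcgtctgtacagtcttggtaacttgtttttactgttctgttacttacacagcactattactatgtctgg
CCAAT was found in 33 of the 39 member promoters against 37.9% of all 27025 promoters of the same length, in every one of the 31 promoters of H1, H2A, H2B and H3 members and in 2 of the 8 of H4 members. TATAAA was found in 21 of 39 against 14.2%. The octamer was found in 3 of 8 H2A and 3 of 12 H2B promoters, in none of H1, H3 or H4, and in 1.75% of all promoters. AAACACA was found in 4 of 5 H1 promoters against 7.14% of all. A match is a description of the letters and not a mapped binding site. Both strands were searched, so a site between head-to-head partners can count for both genes. The promoters counted are therefore not all independent of each other.

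Libraries differed in how many members they detected. Totals ranged from 27124000 to 36353474 counts, and mitochondrial genes took 5.10% to 13.78%. Young sham 1 held counts for 20 of the 43 members, aging injured 1 for 25 and aging injured 2 for 29, against 34 to 37 in the other 8 libraries. The same 3 libraries had the fewest genes of all kinds with a count (18641, 18642 and 19015, against 20411 to 22533). Of the 26 members with 100 counts or fewer, young sham 1 detected 4 and young sham 2 and 3 detected 17 and 18. The 10 valve interstitial markers were present in every library, with a summed level of 14500 to 25180 CPM. Summed cardiomyocyte markers ran from 6693 to 32390 CPM, endothelial ones from 322 to 967, macrophage ones from 551 to 998 and neutrophil ones from 2.05 to 20.3, with Ly6g and Mpo at or under 0.1 on average.

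**Figure D2:**
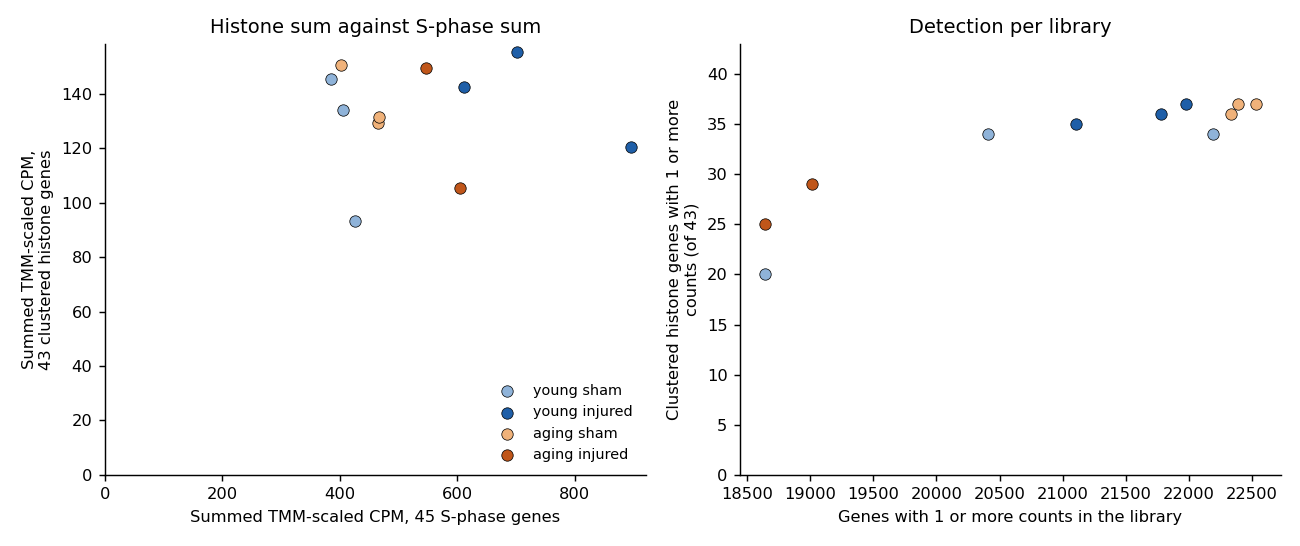
Left: summed TMM-scaled CPM of the 43 clustered histone genes against that of the 45 S-phase genes, 1 point per library. Right: number of clustered histone genes with a count against the number of all genes with a count. On the left the young injured libraries lie furthest to the right, at histone sums of 120 to 155 CPM against 93.3 to 151 in the others, and on the right the 3 libraries with the fewest genes detected also have the fewest histone genes, with 20, 25 and 29 of 43.

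The summed level of the clustered histone genes overlapped between sham and injured valves at both ages. Levels here and below are CPM after scaling by edgeR's trimmed mean of M values (TMM). In young valves the 43 genes summed to 93.3, 134 and 146 CPM after sham surgery and to 155, 120 and 143 CPM after injury, which gives means of 124 ± 27.4 and 139 ± 17.7 (SD, n = 3 each) and a ratio of 1.12. In aging valves they summed to 151, 129 and 132 CPM after sham surgery and to 105 and 149 CPM after injury, a ratio of 0.928. In each age the range of the injured libraries overlapped that of the sham ones. Over the same libraries the 45 genes of the S-phase and DNA replication list summed to 425, 405 and 385 CPM in young sham and 701, 896 and 612 in young injured libraries, a ratio of 1.82 with no overlap, and stood at 445 ± 36.5 (n = 3) and 576 ± 41.2 CPM (n = 2) in aging valves. The 37 members with 1000 counts or fewer, taken without the 6 leading genes, summed to 12.2 ± 3.20 CPM in young sham and 12.5 ± 1.12 in young injured valves.

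A total of 26 members had enough counts to be tested, among 19366 genes in 1 edgeR quasi-likelihood fit of all 11 libraries. A gene was called where its Benjamini-Hochberg adjusted p was under 0.1 and its fold change over 2. After injury in young valves 0 of the 26 members were called, where 0.418% of all genes tested were. An unadjusted p under 0.05 was found for 4 of the 26 members and for 9.19% of all genes. Limma-voom also called 0 members there. DESeq2 called 0 as well, but it gave no adjusted p for Hist1h2bj, Hist1h2br or Hist1h4k and so could not have called them. The members' median log2 fold change was 0.13, against 0.01 over all genes tested, and 16 of 26 had a positive value. In aging valves 0 members were called, where 0% of all genes were, 2 had an unadjusted p under 0.05 against 8.83% of all genes, and the members' median was -0.27. Averaged over age, injury gave 0 called members, where 0.594% of all genes were called, and 3 with an unadjusted p under 0.05 against 11.5% of all genes. The interaction of injury with age, which asks whether injury acted differently in aging valves, gave 0 called members, where 0% of all genes were called. It gave 3 members with an unadjusted p under 0.05 against 7.86% of all genes, and a median of -0.42.

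**Figure D3:**
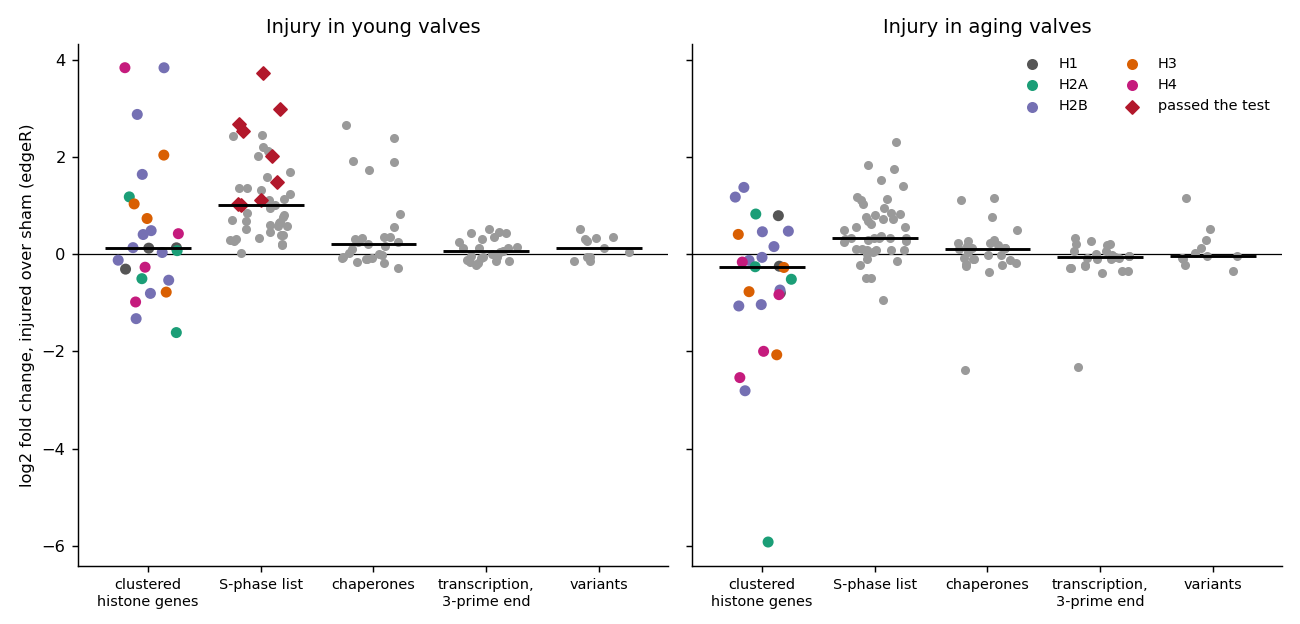
Log2 fold change after injury (edgeR) of each tested gene, in young valves (left) and aging valves (right), for the 26 clustered histone genes coloured by class and for 4 lists of related genes, with the list median as a bar. In young valves the S-phase median is 1.00 and 9 of its genes passed the test, while the histone median is 0.13 and none passed.

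Age was compared in the same fit. Between aging and young sham valves 0 members were called, where 0.0258% of all genes were, and 5 had an unadjusted p under 0.05 against 9.19% of all genes, with a median of 0.20. Between aging and young injured valves 0 members were called, where 0.062% of all genes were, and 2 had an unadjusted p under 0.05 against 12.5% of all genes, with a median of -0.41. Limma-voom called 0 members in each of the 6 comparisons, and DESeq2 called 1, Hist1h2bj for age in sham valves, and 0 in the others. The comparisons share libraries, so their values for a gene are not independent of each other.

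Linker histone H1 was carried by Hist1h1c. Its level was 34.5, 57.3 and 69.5 CPM in the young sham libraries, 60.9, 51.4 and 63.2 in the young injured, 56.6, 45.9 and 47.1 in the aging sham and 30.6 and 53.3 in the aging injured. The widest spread was within young sham valves, and all groups overlapped. Its log2 fold change after injury was 0.12 ± 0.25 (SE) in young and -0.25 ± 0.29 in aging valves (edgeR adjusted p = 0.942 and 0.88). The other 4 H1 genes had 16 to 252 counts in all. Hist1h1e, the largest of them, ranged from 0 counts in young injured 2 to 73 in aging injured 2, with values as far apart within groups as between them. Hist1h1d had 55 counts, Hist1h1b 21 and Hist1h1a 16.

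Among H2A genes, which form a dimer with H2B in the nucleosome, Hist3h2a had the most counts. It stood at 13.7, 20.2 and 11.9 CPM in young sham, 19.2, 14.9 and 14.02 in young injured, 18.8, 16.6 and 15.9 in aging sham and 14.2 and 14.3 in aging injured libraries. After injury its log2 fold change was 0.07 ± 0.21 in young and -0.26 ± 0.24 in aging valves (edgeR adjusted p = 0.964 and 0.83). Trim17 overlaps Hist3h2a on the same strand and shares 28.04% of its 150-base windows, so reads of the pair could not be separated with certainty. Hist2h2aa2 stood at 0.522, 0.798 and 0.749 CPM in young sham and 2.22, 1.34 and 1.13 CPM in young injured libraries, with no overlap and a log2 fold change of 1.18 ± 0.58 (edgeR adjusted p = 0.583). Every one of its 150-base windows also occurs in Hist2h2aa1 or Gm20634. Hist2h2aa1, its near-identical copy, had a log2 fold change of -0.51 ± 0.85. The counts of Hist1h2ac were 28, 7 and 1 in young sham, 7, 1 and 4 in young injured, 14, 4 and 5 in aging sham and 0 and 0 in aging injured libraries. Taking 3 counts over the group as the floor for 0, its level was at least 4.94-fold lower on that floor in aging injured than in aging sham valves, with an edgeR adjusted p of 0.458. The exact 95% counting limit was lower, at 3.70-fold. Of the 23 aging sham counts 14 came from aging sham 1, and without that library the value against the floor was 3.08-fold. Both aging injured libraries are among the 3 with the fewest genes detected, and the part of that in this difference was not tested.

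**Figure D4:**
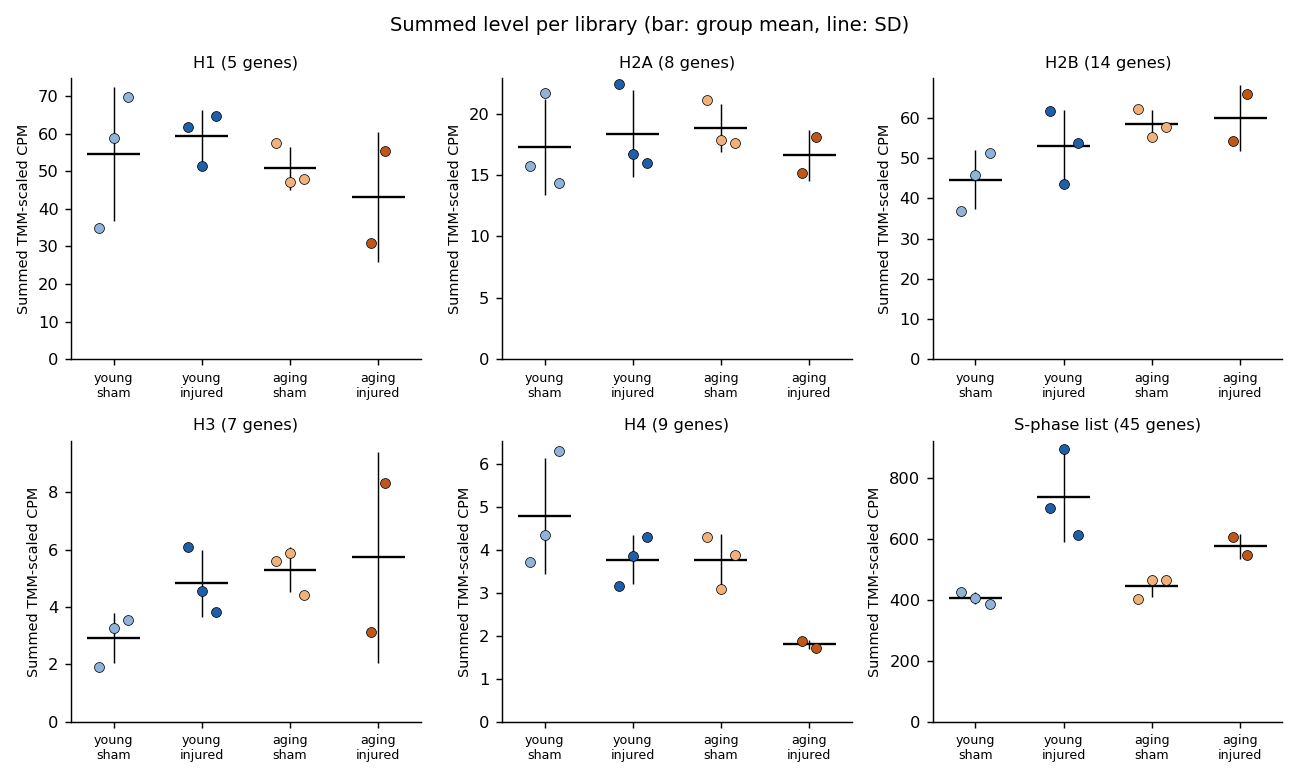
Summed TMM-scaled CPM of each histone class and of the 45 S-phase genes, 1 point per library, with group means as bars and SD as lines. The S-phase sum is highest in the young injured libraries (612 to 896 CPM), H4 is lowest in the aging injured ones (1.88 and 1.72 CPM), and the H1, H2A and H2B sums of injured and sham libraries overlap at both ages.

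H2B held the most members, 14 of the 43. Hist1h2bc stood at 23.5, 25.2 and 28.1 CPM in young sham, 36.6, 26.6 and 38.2 in young injured, 38.1, 31.7 and 35.0 in aging sham and 38.1 and 39.6 in aging injured libraries. Young sham valves were lower than aging sham valves without overlap, with a log2 fold change with age of 0.45 ± 0.16 (edgeR adjusted p = 0.449), while injury in young valves gave 0.40 ± 0.16 (adjusted p = 0.437). With 17.4% of its windows shared with other genes, Hist1h2bc was mostly distinct in sequence. Hist2h2be stood at 7.69, 13.4 and 11.2 CPM in young sham and 16.9, 10.4 and 8.02 in young injured libraries, and Hist1h2be at 3.83, 4.57 and 7.14 and at 4.40, 2.36 and 3.93. Both overlapped between groups, with log2 fold changes of 0.13 ± 0.32 and -0.54 ± 0.35. Hist1h2bg, in the same order of groups, had 30, 42 and 51 and then 63, 86 and 53 counts, and 53, 62 and 87 in aging sham against 25 and 41 in aging injured libraries.

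The H2B gene Hist1h2bj, at chr13:22043214-22043676, had the smallest adjusted p of the 26 members after injury in young valves. Its counts were 0, 1 and 1 in young sham, 10, 14 and 14 in young injured, 18, 13 and 13 in aging sham and 8 and 5 in aging injured libraries. Young sham valves thus stood apart from the other 3 groups. The 38 counts of young injured against 2 of young sham libraries put the level 16.9 times higher, and the exact 95% limits, which cover counting error only, were 4.36 and 144. Its log2 fold change was 3.83 ± 1.06 after injury in young valves (edgeR adjusted p = 0.211) and 4.12 ± 1.06 for age in sham valves (edgeR adjusted p = 0.328, DESeq2 adjusted p = 0.0583). Hist1h2br followed the same order with 0, 2 and 1, then 9, 14 and 5, then 8, 13 and 8, then 6 and 5 counts, and log2 fold changes of 2.87 ± 1.12 after injury in young valves and 3.05 ± 1.12 for age in sham valves (edgeR adjusted p = 0.444 and 0.478). Of its 150-base windows 99.8% occur in other genes. Hist1h2bq, 1 of the genes that share them, had 0, 14 and 10 counts in young sham and 7, 3 and 6 in young injured libraries. Young sham 1 has 0 counts for Hist1h2bj, Hist1h2br and Hist1h2bq alike. Without it the log2 fold change of Hist1h2bj after injury in young valves was 3.27, that of Hist1h2br 2.30 and that of the H4 gene Hist1h4k 3.32.

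**Figure D5:**
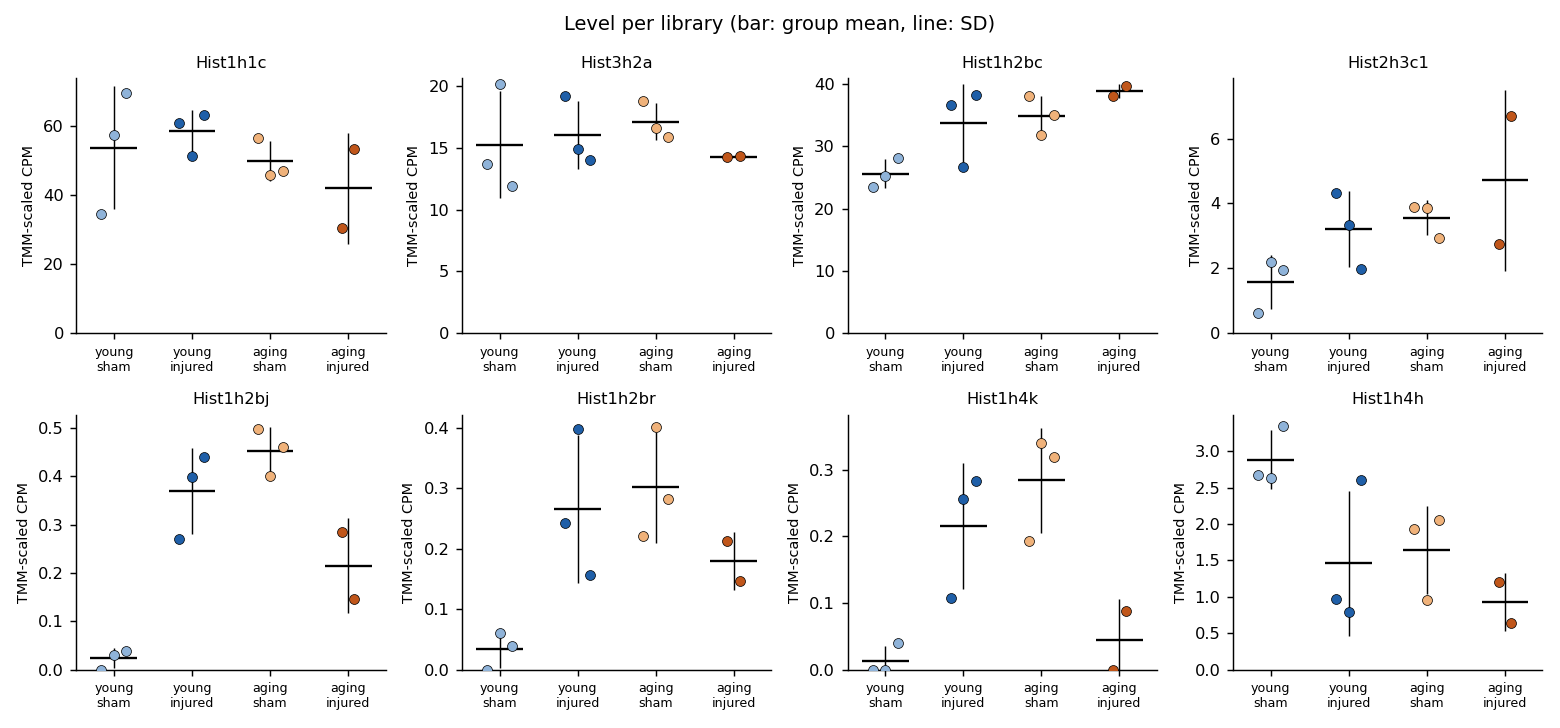
TMM-scaled CPM of 8 clustered histone genes, 1 point per library, with group means as bars and SD as lines. Hist1h1c and Hist3h2a overlap between injured and sham libraries of young valves, Hist1h2bj is at or below 0.039 CPM in the young sham libraries, and Hist1h4h is highest there.

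H3, which with H4 forms the central tetramer of the nucleosome, was represented mainly by Hist2h3c1. That gene stood at 0.609, 2.18 and 1.93 CPM in young sham, 4.32, 3.32 and 1.98 in young injured, 3.89, 3.86 and 2.94 in aging sham and 2.74 and 6.69 in aging injured libraries. Sham and injured young valves overlapped, and sham valves of the 2 ages did not. The log2 fold change was 1.03 ± 0.52 after injury in young valves and 1.18 ± 0.52 for age in sham valves (edgeR adjusted p = 0.592 and 0.531). All of its windows recur in transcripts of other genes, which are Gm20634, Hist2h3b and Hist2h3c2. Gm20634 overlaps it on the same strand, so the assignment of its reads is uncertain. Hist2h3b had 0, 3 and 4 counts in young sham and 8, 22 and 6 in young injured libraries, without overlap. Hist2h3c2 had 0, 25 and 15 and then 31, 20 and 27. Summed over the 7 genes, H3 stood at 1.91, 3.28 and 3.55 CPM in young sham and 6.10, 4.55 and 3.84 in young injured libraries, a ratio of 1.66 without overlap, and at 5.61, 5.89 and 4.42 against 3.13 and 8.33 in aging ones, a ratio of 1.08. Without young sham 1 the young ratio was 1.41. The aging ratio was 1.57 without aging injured 1 and 0.589 without aging injured 2.

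The H4 sum had a ratio below 1 after injury at both ages, and 4 of 4 tested H4 genes had negative values in aging valves. The 9 genes summed to 3.71, 4.36 and 6.31 CPM in young sham and 3.16, 3.86 and 4.31 in young injured libraries, which overlap, and to 4.31, 3.08 and 3.89 in aging sham and 1.88 and 1.72 in aging injured libraries, which do not. The ratio was 0.788 in young and 0.479 in aging valves, but as the median over the 4 tested genes it was 1.05 in young valves and 0.375 in aging ones. Both aging injured libraries are among the 3 with the fewest genes detected, and young sham 1, the third, had the lowest H4 sum of its group. The part of detection in the H4 values was not tested. Hist1h4h, at chr13:23531050-23531522, led the class with 2.67, 2.64 and 3.35 CPM in young sham, 0.972, 0.795 and 2.61 in young injured, 1.93, 0.956 and 2.05 in aging sham and 1.21 and 0.643 in aging injured libraries. Young sham valves were highest, although young injured 3, at 2.61, nearly reached the lowest of them, at 2.64. Its log2 fold change after injury was -0.98 ± 0.55 in young and -0.83 ± 0.63 in aging valves (edgeR adjusted p = 0.649 and 0.779). Hist1h4i had 42, 21 and 18 counts in aging sham against 3 and 10 in aging injured libraries, with a log2 fold change of -2.00 ± 0.82 (edgeR adjusted p = 0.518), and in young valves 27, 25 and 41 against 33, 43 and 16. Hist1h4k went the other way in young valves, with 0, 0 and 1 counts after sham surgery and 4, 9 and 9 after injury, and it had 7, 11 and 9 against 0 and 3 in aging valves. Its log2 fold change was 3.83 ± 1.45 in young and -2.54 ± 1.47 in aging valves, and their difference, tested as the interaction, was -6.37 ± 2.08 (edgeR adjusted p = 0.423, 0.668 and 0.519). Hist2h4 overlapped between the sham and injured libraries of each age, with a log2 fold change of 0.42 ± 0.73 in young valves.

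Counts of members whose groups did not overlap were set against the same count over all genes tested. After injury in young valves 5 of 26 members were higher in every injured library (Hist1h2bj, Hist1h2br, Hist1h4k, Hist2h2aa2 and Hist2h3b), where 9.54% of all genes were, and 1 (Hist1h4h) was lower, where 5.07% were. After injury in aging valves 1 member (Hist1h2bc) was higher, where 11.1% of all genes were, and 9 were lower, where 16.7% were. For age in sham valves 6 members were higher, where 11.8% were, and 2 were lower, where 9.08% were. For age in injured valves 0 members were higher, where 9.89% were, and 6 were lower (Hist1h2ac, Hist1h2bg, Hist1h4i, Hist1h4k, Hist2h3c2 and Hist3h2ba), where 14.5% were. The 6 that were higher with age in sham valves include 4 of the 5 higher after injury in young valves, and both counts rest on the same young sham libraries. Of the members with too few counts to be tested, 3 had 0 counts in all young sham libraries (Hist1h2ak, Hist1h3f and Hist1h4d), and 10 had 0 in both aging injured ones. Aging injured valves have 2 libraries against 3 in each other group. Both are among the 3 libraries with the fewest genes detected, as is young sham 1. The part of this in the zeros was not tested. Single libraries carried several of the untested members. Of the 34 counts of Hist1h2ak, 31 came from aging injured 2. Young sham 3 gave 18 of the 28 of Hist1h2ad, and aging sham 1 gave 13 of the 16 of Hist1h2af.

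Genes that work with the clustered histones were examined as lists in the same fit. Of the 45 S-phase and DNA replication genes, 9 rose after injury in young valves and 0 fell, all 45 had positive values, and the median was 1.00. They include Ccna2, the cyclin of S phase, at 1.62, 1.75 and 1.14 CPM in sham and 15.4, 27.3 and 17.7 in injured libraries (log2 fold change 3.73 ± 0.38, edgeR adjusted p = 0.0054). Uhrf1, which keeps DNA methylation on copied DNA, rose by 2.67 ± 0.33, Rrm2, the small subunit of ribonucleotide reductase, by 2.54 ± 0.38, and Mcm5, a subunit of the replicative helicase, by 2.03 ± 0.29. The count of 9 became 3 without young injured 2, 15 without young injured 3, 4 or 5 when any 1 of the young sham libraries was left out (5 for the first, 4 for each of the others), and 1 when only the young libraries were fitted. In aging valves 0 of the 45 passed, 38 had positive values and the median was 0.34. Young injured 2 had the highest S-phase sum, 896 CPM, and the lowest summed level of clustered histones among the young injured libraries, 120 CPM. In the same comparison 2 of 10 valve interstitial markers rose, and all 8 macrophage markers had positive values with 0 called, and the part of these in the S-phase values was not tested.

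The other lists held no gene that passed the test after injury in young valves, and their counts at an unadjusted p under 0.05 stand beside 9.19% of all genes. Of 24 genes for transcription of histone genes and for 3′ processing and decay of their mRNA, 2 had an unadjusted p under 0.05, and the median log2 fold change was 0.06. Slbp, the stem-loop binding protein, stood at 17.1, 16.5 and 15.1 CPM in sham and 22.6, 24.6 and 19.1 in injured libraries (0.45 ± 0.18, edgeR adjusted p = 0.461). Ncbp1 of the cap-binding complex had 0.43 ± 0.18 and Cstf2, a cleavage factor, 0.35 ± 0.16. Of 27 histone chaperones 6 had an unadjusted p under 0.05, with a median of 0.21. Chaf1b, a subunit of the chromatin assembly factor that places new H3 and H4 behind the replication fork, stood at 1.80, 0.522 and 0.394 CPM in sham and 5.05, 6.82 and 2.42 in injured libraries (2.38 ± 0.59, edgeR adjusted p = 0.158). Asf1b, an H3 and H4 chaperone, had 1.72 ± 0.57. Of the 11 tested histone variant genes from outside the clusters, 1 had an unadjusted p under 0.05, and the median was 0.13. The mRNAs of these variant genes mostly carry poly(A) tails. H2afz stood at 42.6, 28.3 and 27.5 CPM in sham and 35.7, 49.1 and 34.2 in injured libraries, H2afx at 13.8, 11.2 and 12.6 and at 16.2, 19.0 and 18.7, and H2afy at 54.9, 48.3 and 45.7 and at 64.6, 61.9 and 58.9. The 12 variant genes summed to 560 to 710 CPM per library, against 93.3 to 155 CPM for the 43 clustered genes.

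Other RNAs that carry no poly(A) tail gave a view of what the libraries held. Genes annotated as small nucleolar RNA summed to 76.6 to 104 CPM per library, small nuclear RNA to 8.59 to 14.5 CPM and small Cajal body RNA to 0.29 to 4.85 CPM. Many small nucleolar RNA genes lie within introns of other genes, and their counts could not be separated from reads of the host gene here. By name, 10 small RNAs without poly(A) tails were also looked up, of which 8 were among the genes counted. Together these had 6 to 65 counts per library.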

How the data were processed

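Per the labels' protocols, an mRNA kit turned 200 ng of total RNA into libraries that were read in pairs of 150 nt. Per the submitters' processing notes, TopHat2 2.1.0 and the mm10 genome build were used. Which program counted the reads, with which annotation and whether by strand, is not given in the sources used here. The authors deposited raw counts for 46983 genes and RPKM values for 13526 genes. In addition, 1 library column matched no sample and was used in no step.

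From the counts, edgeR 4.0.16 in R 4.3.3 gave TMM-scaled CPM and a quasi-likelihood F test, in 1 fit of all 11 libraries with 4 group means, after filterByExpr with a minimum count of 10 left 19366 genes. P-values were adjusted over all of them by the Benjamini-Hochberg method, with calls at an adjusted p under 0.1 and a fold over 2. The SE of a log2 fold change is its size over the square root of its F. DESeq2 1.42.0 and limma 3.58.1 were alternatives, and the test was tried on simulated data. The simulated spread between libraries was set smaller than that of these data. The trial therefore cannot show how many changes the test would miss here. Named genes were the 4 members of each class with the highest mean CPM, the called members or else the 3 with the smallest p per comparison, and, in each related list, up to 8 called genes or else the 3 with the smallest p after injury in young valves. Among the histone chaperones 1 gene named by this rule is not reported here. Members with 0 counts in a whole group or close to the count minimum were also named. The members and lists were chosen with earlier results of these data known. Other genes named for the same young sham pattern or for counts in 1 library were chosen after their values were seen. GENCODE M21 coordinates equalled those of the count table for 24 of the 43 members, so its transcripts are not those that were counted.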

Additional observations from a re-analysis of the deposited data

Results flagged for a closer look

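Hist3h2bb-ps, annotated as a processed pseudogene and therefore no member, showed counts in data outside the main comparisons. Its highest level was 0.455 CPM in young injured 2, with 16 counts, and young injured 1 and 3 had 0 and 2. The young sham libraries had 0, 1 and 0 counts, the aging sham ones 1, 4 and 6 and the aging injured ones 0 and 0. The difference rests on 1 library and was not tested.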

How the results depend on the processing

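The count of 0 called members held in all 6 comparisons with limma-voom, RLE size factors, totals without mitochondrial genes, no low-count filter, no fold threshold, a cardiomyocyte score, only the groups compared where that applies, and without each replicate in turn (0 to 0). DESeq2 called 1 for age in sham valves, Hist1h2bj, and gave no adjusted p for Hist1h2bj, Hist1h2br or Hist1h4k after injury in young valves. Of 2400 values of named members under alternatives, 124 changed sign without being called and 0 passed the test in the opposite direction. S-phase genes called after injury in young valves numbered 9, and 3 to 15 without single replicates (3 without young injured 2, 15 without young injured 3, 4 or 5 without a young sham library), 19 with DESeq2, 1 with only the 2 groups compared and 5 with an added factor that marks the 3 libraries of lowest gene detection, all chosen after seeing the data. Averaged over age they numbered 7, and 5 to 9 without single replicates, 14 with DESeq2 and 11 with no fold threshold. The H4 fold after injury, 0.788 and 0.479 as a sum, was 1.05 in young and 0.375 in aging valves as the median over tested members. Without aging injured 1 the H3 fold in aging valves was 1.57, and without aging injured 2 it was 0.589. The replicate number as a block left 0 members called in every comparison and 6 S-phase genes in young valves and 6 averaged over age. Of 15 same-numbered pairs 3 correlated above 0.1 (-0.25 to 0.44), among them 2 of the 3 pairs of young sham with young injured libraries. The values are deviations from means of groups of 2 or 3 libraries, so they cannot decide whether the numbers pair the samples. Depth limits the 26 members with 100 counts or fewer.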
